A study of Mus musculus with 6 samples.

Results

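The genes described here are 10 cartilage genes, measured in Ebf2-positive and Ebf2-negative cells of mouse bone marrow. Of them, 3 encode transcription factors of the SOX family (Sox9, Sox5 and Sox6) and 7 encode proteins of the cartilage matrix other than collagens (Acan, Matn1, Matn3, Hapln1, Cnmd, Snorc and Ucma). They were found by name, through the array annotation, as every probe set that names exactly 1 gene, that gene being 1 of the 10. This gave 26 of the 45037 non-control probe sets of the array and 10 of the 18193 genes tested. All 10 genes had at least 1 probe set. No filter on low signal was applied, so the 10 are described whatever their brightness.

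Ebf2-positive cells were sorted as CD45-, TER119-, CD31- and EBF2+, and Ebf2-negative cells as CD45-, TER119-, CD31- and EBF2-, with 3 arrays of each. Both came fresh from the marrow of untreated adult wild-type mice of the C57BL/6 background. Leukocytes carry CD45, erythroid cells TER119 and endothelial cells CD31, so the gate aims at marrow stroma. The sources used here do not give how Ebf2 was detected, the exact age of the mice or whether replicates came from separate animals. The p-values therefore reflect only how these 3 arrays per group scatter, and that scatter may be technical. RNA of 1000 or 2000 cells per sample was amplified and hybridized to Affymetrix MOE430_2 arrays, and the authors deposited RMA signals, used here as log2. The median log2 signal of an array lay between 3.69 and 3.80, its lower quartile between 2.48 and 2.67 and its lowest 5% below 1.78 to 1.94. With 3 arrays per group, precision is limited throughout.

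Cartilage is laid down by chondrocytes, which arise from mesenchymal progenitors. Sox9 is required for that step and switches on the genes of type II collagen and aggrecan, and Sox5 and Sox6, which have no known activation domain of their own, work with it. The matrix is a gel in which aggrecan, a large proteoglycan, hangs on hyaluronan strands through a link protein, while matrilins tie the collagen fibrils to the other components. Marrow itself holds no cartilage in an adult, but growth plate and joint surface lie next to it.

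Ebf2 followed the sort, at 8.13, 8.80 and 8.04 on Ebf2-positive replicates 1, 2 and 3 and at 3.10, 4.02 and 3.84 on the Ebf2-negative arrays. Ptprc, the gene of CD45, was at 6.68, 6.76 and 3.59 on the Ebf2-positive and at 8.78, 7.98 and 8.23 on the Ebf2-negative arrays. In these cells gated as CD45-negative, its message was above the array median except on Ebf2-positive replicate 3, where the median was 3.75. Pecam1, the gene of CD31, was dim in both groups, at 3.41, 4.15 and 3.15 in Ebf2-positive cells, against 2.75, 3.80 and 2.48 in Ebf2-negative cells. The mean of 10 measured erythroid genes was between 4.49 and 5.04 on the Ebf2-positive arrays and between 9.24 and 9.47 on the Ebf2-negative arrays, and all 10 were lower in Ebf2-positive cells. Ebf2-positive replicate 2 stood apart from replicates 1 and 3 on the second principal component of all probe sets, which held 13.6% of the variance, with a coordinate of -113 against 57.2 and 55.7. Its actin signal at the 3' end over that at the 5' end, which reflects RNA integrity and amplification, was 14.0, against 31.4 and 27.3 on replicates 1 and 3. The Ebf2-negative arrays had ratios of 24.2, 15.9 and 19.5.

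Acan, Matn3, Hapln1, Cnmd and Ucma were brighter on Ebf2-positive replicates 1 and 3 than on any Ebf2-negative array, and dimmer on Ebf2-positive replicate 2 than on any of them. Over all 6 arrays, 0 of the 10 genes passed the test in either direction (limma, Benjamini-Hochberg adjusted p over all genes under 0.05), and 0 of the 10 had an unadjusted p under 0.05. Of all genes, 24.4% passed, 10.8% higher and 13.6% lower. Non-overlapping groups were seen for 0 of the 10 genes and for 43.0% of all genes. The median log2 difference over the 10 genes was 0.92, beside 0.07 over all genes, and 8 of the 10 differences were positive. All differences are Ebf2-positive minus Ebf2-negative and are relative to the rest of the array. Centring each array on its poly-A spike-in controls moved the median of all genes by -2.48, and then the median of the 10 was -1.56.

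Without Ebf2-positive replicate 2, 6 of the 10 genes were called higher and 0 lower, where 23.9% of all genes were called, 10.3% higher and 13.6% lower. The 6 were Sox9, Acan, Matn3, Hapln1, Cnmd and Ucma. Leaving out any of the other 5 arrays gave 0 calls among the 10 genes, while 14.8% to 23.0% of all genes were called. Among the 26 probe sets, 10 were higher and 1 lower without Ebf2-positive replicate 2, beside 14.9% of all probe sets called, 6.28% higher and 8.59% lower. With poly-A centring and without that array, 0 of the 10 were higher, beside 0.896% of all genes. Under that setting 3 (Sox5, Sox6 and Matn1) were lower, beside 81.3%. The 6 calls were thus made relative to the rest of the array and not relative to the spike-ins. The array left out was the lowest of its group for all 6 genes. Leaving it out narrows the spread of the group, so these calls are no separate support for a group difference.

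The promoters of the 5 matrix genes among these 6 are shown because their signals moved together between the Ebf2-positive arrays, the same split that selected them. On the Ebf2-negative arrays their order differed from gene to gene. Each window runs from 250 bases before to 50 bases after the start of the gene, on the gene's strand, from RefSeq on GRCm38.p6. Capitals mark matches, on both strands, to 5 motifs. The SOX motif AACAAT was found in 10.7% of all 32851 windows of the same length. The SOX motif ACAAAG was found in 18.7%. The shorter SOX core ACAAT, which is part of the first, was found in 31.0%. The palindromic EBF consensus was found in 0.904%, and its inner part CCCNNGGG in 13.7%. Both shorter motifs were added after the longer ones had been searched.
Acan, chr7:79052976-79053275, plus strand: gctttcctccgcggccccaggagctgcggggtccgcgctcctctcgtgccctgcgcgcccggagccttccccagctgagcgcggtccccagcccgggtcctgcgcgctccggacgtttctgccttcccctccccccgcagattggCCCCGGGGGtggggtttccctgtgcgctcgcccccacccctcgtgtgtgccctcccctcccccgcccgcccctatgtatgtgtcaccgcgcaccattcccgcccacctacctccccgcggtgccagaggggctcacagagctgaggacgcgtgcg
Matn3, chr12:8947679-8947978, plus strand: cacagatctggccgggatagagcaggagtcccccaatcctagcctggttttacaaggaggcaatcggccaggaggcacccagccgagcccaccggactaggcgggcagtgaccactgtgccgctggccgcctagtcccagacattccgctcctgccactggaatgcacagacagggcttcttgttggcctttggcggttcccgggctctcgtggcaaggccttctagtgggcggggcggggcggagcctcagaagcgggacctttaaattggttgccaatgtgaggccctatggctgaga
Hapln1, chr13:89540386-89540685, plus strand: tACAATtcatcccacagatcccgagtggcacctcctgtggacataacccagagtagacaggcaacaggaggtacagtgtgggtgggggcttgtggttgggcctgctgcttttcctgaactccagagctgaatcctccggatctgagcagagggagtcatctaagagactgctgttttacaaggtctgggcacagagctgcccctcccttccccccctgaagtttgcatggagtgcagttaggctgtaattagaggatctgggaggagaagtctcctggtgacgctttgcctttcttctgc
Cnmd, chr14:79662134-79662433, minus strand: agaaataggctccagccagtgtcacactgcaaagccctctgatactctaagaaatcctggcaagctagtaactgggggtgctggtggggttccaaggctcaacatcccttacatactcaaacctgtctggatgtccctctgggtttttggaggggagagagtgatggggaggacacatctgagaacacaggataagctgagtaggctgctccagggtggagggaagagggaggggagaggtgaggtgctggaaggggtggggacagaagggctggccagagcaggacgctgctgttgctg
Ucma, chr2:4975872-4976171, plus strand: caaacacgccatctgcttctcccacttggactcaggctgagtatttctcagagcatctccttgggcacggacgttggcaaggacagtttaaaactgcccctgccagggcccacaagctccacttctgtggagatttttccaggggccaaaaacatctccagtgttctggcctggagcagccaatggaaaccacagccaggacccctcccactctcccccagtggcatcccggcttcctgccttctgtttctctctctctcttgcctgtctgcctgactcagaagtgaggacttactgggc
Acan held a pair of overlapping matches to CCCNNGGG, which start 104 and 105 bases before the start of the gene, and Hapln1 held ACAAT. The windows of Matn3, Cnmd and Ucma held none of these letters. Promoter windows were listed for 8 of the 10 genes, not for Sox9 or Snorc. Sox6 has 6 listed starts, and 5 member windows in all held ACAAAG, each of them a window of Sox6.

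**Figure D1:**
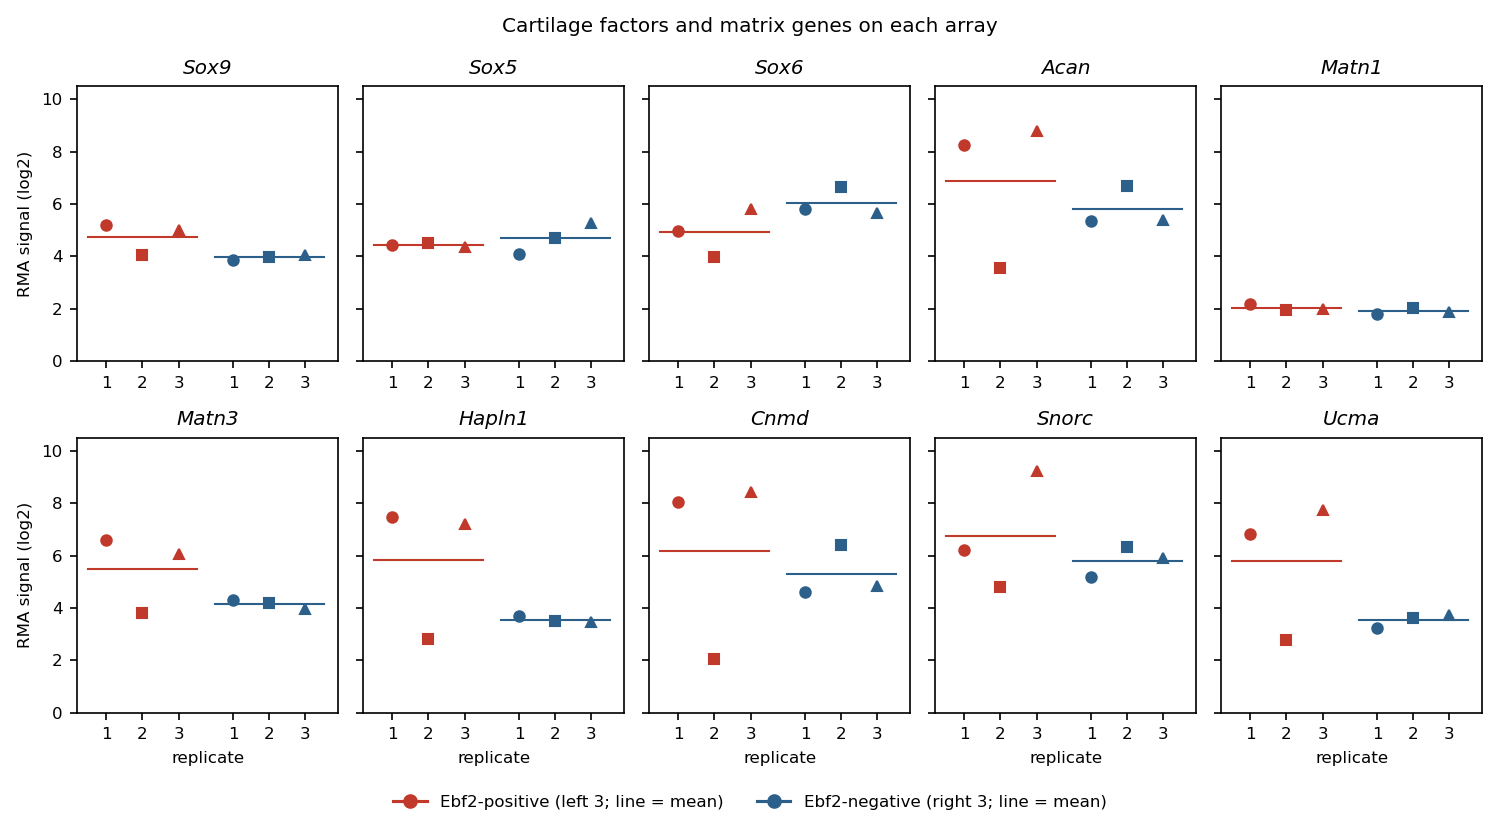
The log2 RMA signal of each of the 10 genes on each array, with Ebf2-positive replicates 1 to 3 on the left and Ebf2-negative replicates 1 to 3 on the right of each panel, marker shapes for replicates and lines at group means. Ebf2-positive replicate 2 was at 3.56 for Acan and 2.05 for Cnmd, below all 3 Ebf2-negative arrays, while replicates 1 and 3 were above 8 for both genes.

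Among the SOX factors, Sox9 was above the median signal on every array by its brightest probe set only. That probe set was at 5.20, 4.05 and 5.0 on the Ebf2-positive arrays and at 3.84, 3.99 and 4.07 on the Ebf2-negative arrays. Replicates 1 and 3 of the Ebf2-positive group were above all Ebf2-negative arrays, and replicate 2 was within their range. The log2 difference was 0.78 (SE 0.33, limma adjusted p = 0.142), and 0.56 or 0.66, not called, without Ebf2-positive replicate 1 or 3. Without Ebf2-positive replicate 2 it was 1.13 (SE 0.20, adjusted p = 0.0144, 2.19-fold). The other Sox9 probe sets, 1424950_at and 1433889_at, differed by 0.67 and 0.24 over all arrays and were not called with or without that array (adjusted p = 0.189 and 0.465 without it, among probe sets). For 1424950_at, the signal was 4.88, 3.42 and 3.78 in Ebf2-positive and 3.73, 3.26 and 3.07 in Ebf2-negative cells, so the groups overlapped. For 1433889_at, it was 2.74, 2.70 and 2.66 in Ebf2-positive and 2.63, 2.40 and 2.35 in Ebf2-negative cells. These groups did not overlap, but all values were below the median signal of the arrays.

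Sox5, a partner of Sox9 on cartilage enhancers, showed no difference that passed the test. It has 7 probe sets, the most of the 10 genes. The brightest was at 4.45, 4.50 and 4.37 on the Ebf2-positive arrays and at 4.07, 4.71 and 5.29 on the Ebf2-negative arrays. The Ebf2-positive values were close together and lay inside the Ebf2-negative range (log2 difference -0.25, SE 0.32, limma adjusted p = 0.627). Over the 7 probe sets the differences ran from -0.25 to 0.63, and 0 were called. The probe sets disagreed in sign, so a direction for Sox5 depends on which is read, and the mean of the 7 gave 0.27. The widest positive difference was that of 1455535_at, at 3.08, 2.98 and 3.09 in Ebf2-positive and 2.86, 2.30 and 2.10 in Ebf2-negative cells, where the groups did not overlap (adjusted p = 0.14 among probe sets).

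Sox6 had the only called probe set among the 26, and it was lower in Ebf2-positive cells. That probe set, 1426018_a_at, was at 2.67, 2.65 and 1.94 on the Ebf2-positive arrays and at 4.71, 4.93 and 5.07 on the Ebf2-negative arrays. The groups did not overlap, and the Ebf2-positive values were near or below the lower quartiles of the arrays. Its log2 difference was -2.48 (SE 0.26, limma adjusted p = 0.00266 over all probe sets), and it stayed called without any single array, with adjusted p from 0.00474 to 0.0185. It is absent from the fit without dim probe sets. It is also absent from a fit that left out every probe set with a name ending in _x_at, _s_at or _a_at. That filter went by the name alone, and cross-hybridisation of this probe set was not tested. Of all 45037 probe sets, 15.1% were called, 6.39% higher and 8.76% lower, beside 0 higher and 1 lower of these 26. Groups did not overlap for 3 of the 26 and for 35.9% of all probe sets.

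The other 3 Sox6 probe sets were not called, with differences of -0.90, -1.13 and -2.06. The brightest, 1434918_at, which stands for the gene, was at 4.95, 3.97 and 5.81 in Ebf2-positive and 5.81, 6.65 and 5.66 in Ebf2-negative cells (SE 0.51, limma adjusted p = 0.171). Ebf2-positive replicate 3 was inside the Ebf2-negative range, and replicates 1 and 2 were below it. 1447655_x_at was at 4.57, 1.63 and 6.09 in Ebf2-positive and 6.21, 6.87 and 5.38 in Ebf2-negative cells, with the lowest value again on Ebf2-positive replicate 2. In the mouse Sox6 also acts in maturing red cells, outside cartilage. Genes of that lineage were higher in the Ebf2-negative cells (a mean over 10 genes of 4.49 to 5.04 in Ebf2-positive and 9.24 to 9.47 in Ebf2-negative cells), and their part in the Sox6 signal was not tested.

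**Figure D2:**
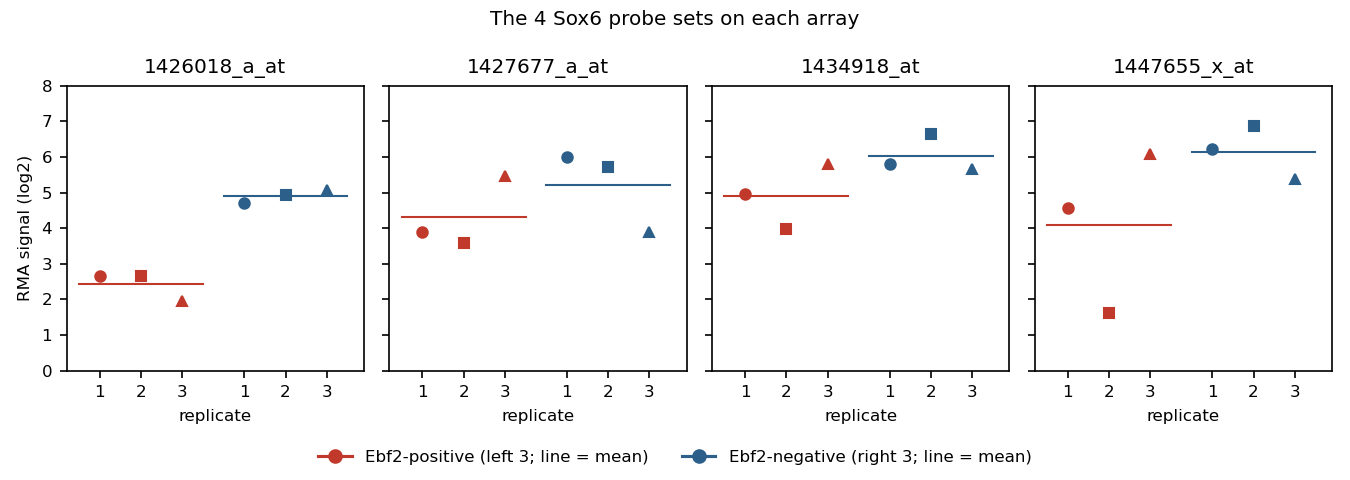
The log2 RMA signal of the 4 Sox6 probe sets on each array, Ebf2-positive on the left and Ebf2-negative on the right, with lines at group means. Only 1426018_a_at separates the groups, with Ebf2-positive arrays between 1.94 and 2.67 and Ebf2-negative arrays between 4.71 and 5.07.

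Aggrecan and the link protein, the core of the proteoglycan gel, split the Ebf2-positive arrays. Acan was at 8.26, 3.56 and 8.79 on the Ebf2-positive arrays and at 5.35, 6.68 and 5.40 on the Ebf2-negative arrays. Replicates 1 and 3 were above every Ebf2-negative array and replicate 2 below every one. The difference was 1.06 (SE 1.36, limma adjusted p = 0.623) over all arrays, and 2.71 (SE 0.48, adjusted p = 0.0133, 6.56-fold) without Ebf2-positive replicate 2. Without Ebf2-positive replicate 1 or 3 it was only 0.37 or 0.10 and was not called.

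Hapln1, the link protein that fastens aggrecan to hyaluronan, was at 7.48, 2.83 and 7.19 in Ebf2-positive and at 3.69, 3.51 and 3.47 in Ebf2-negative cells. The Ebf2-negative arrays lay within 0.23 of each other, and Ebf2-positive replicate 2 was below them. The difference was 2.28 (SE 1.19, limma adjusted p = 0.229), and 1.45 or 1.60, not called, without Ebf2-positive replicate 1 or 3. It was 3.78 (SE 0.21, adjusted p = 9.55e-04, 13.7-fold) without Ebf2-positive replicate 2. Hapln1 has 4 probe sets, and all 4 had replicates 1 and 3 of the Ebf2-positive group above every Ebf2-negative array and replicate 2 below every one. Without that replicate the 4 differed by 2.40 to 3.78 and were all called (adjusted p from 0.00182 to 0.0236 among probe sets). The brightest is removed by the filter on names ending in _x_at, _s_at or _a_at, and the gene then differed by 1.13 over all arrays.

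The matrilins differed from each other. Matn3, a matrilin of growth plate and articular cartilage, was at 6.60, 3.82 and 6.07 in Ebf2-positive and at 4.29, 4.20 and 3.98 in Ebf2-negative cells. Again replicates 1 and 3 were high and replicate 2 was below every Ebf2-negative array, for a difference of 1.34 (SE 0.69, limma adjusted p = 0.222), or 2.18 (SE 0.25, adjusted p = 0.00414, 4.53-fold) without replicate 2. Without Ebf2-positive replicate 1 or 3 the Matn3 difference was 0.79 or 1.06 and was not called. A second Matn3 probe set, 1455948_x_at, was at 7.54, 1.39 and 7.40 in Ebf2-positive and 3.63, 3.79 and 3.13 in Ebf2-negative cells. Matn1, the matrilin known from tracheal and growth plate cartilage, was at the lower end of the signal range on all arrays, at 2.17, 1.96 and 1.99 in Ebf2-positive and 1.79, 2.05 and 1.86 in Ebf2-negative cells (difference 0.13, SE 0.18, adjusted p = 0.64). With 1 probe set at that level, Matn1 was not measured above the dim part of the array in either group.

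Cnmd encodes chondromodulin, a glycoprotein of cartilage that inhibits the growth of blood vessels. It had the widest spread of the 10 genes within the Ebf2-positive group, at 8.03, 2.05 and 8.44, and was at 4.62, 6.42 and 4.83 in Ebf2-negative cells. The Ebf2-positive arrays lay on both sides of all Ebf2-negative ones. The difference was 0.88 (SE 1.69, limma adjusted p = 0.747), changed sign without Ebf2-positive replicate 1 (-0.04) or replicate 3 (-0.25), and was 2.95 (SE 0.58, adjusted p = 0.0189, 7.70-fold) without replicate 2.

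Ucma encodes a small secreted protein rich in vitamin K-dependent Gla residues, made by chondrocytes of the resting zone. Its brighter probe set was at 6.81, 2.79 and 7.75 in Ebf2-positive and at 3.24, 3.60 and 3.74 in Ebf2-negative cells. Replicates 1 and 3 were well above the Ebf2-negative arrays and replicate 2 was below them (difference 2.26, SE 1.21, limma adjusted p = 0.24). Without Ebf2-positive replicate 1 or 3 the difference was 1.74 or 1.27 and was not called. Without replicate 2 it was 3.75 (SE 0.35, adjusted p = 0.00239, 13.5-fold), with replicates 1 and 3 high. The dimmer probe set, 1428993_at, did not show this, at 3.26, 3.69 and 4.20 in Ebf2-positive and 3.23, 3.07 and 3.55 in Ebf2-negative cells (difference 0.43, and 0.45 with adjusted p = 0.457 among probe sets without Ebf2-positive replicate 2). It alone stands for Ucma once probe sets with names ending in _x_at, _s_at or _a_at are removed. The Ucma call without Ebf2-positive replicate 2 therefore rests on 1428994_s_at.

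Snorc, a transmembrane chondroitin sulfate proteoglycan of chondrocytes, followed a looser version of the pattern. It was at 6.22, 4.81 and 9.24 in Ebf2-positive and at 5.17, 6.32 and 5.89 in Ebf2-negative cells. Only replicate 3 of the Ebf2-positive group was above every Ebf2-negative array. The difference was 0.96 (SE 1.07, limma adjusted p = 0.569), and it was not called without replicate 2 either (1.93, SE 0.91, adjusted p = 0.195).

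**Figure D3:**
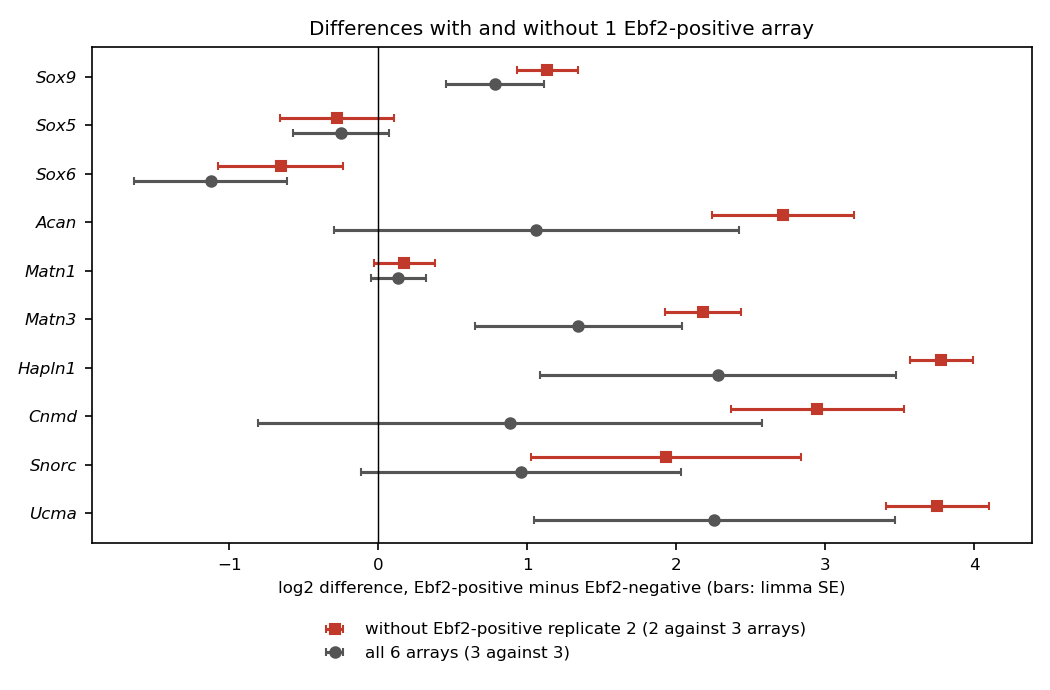
The log2 difference, Ebf2-positive minus Ebf2-negative, of each of the 10 genes with its limma standard error, without Ebf2-positive replicate 2 (squares, 2 against 3 arrays) and with all 6 arrays (circles). The difference of Hapln1 was 3.78 without that array and 2.28 with it, and those of Sox5 and Matn1 hardly moved.

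The 10 genes varied widely within the Ebf2-positive group. Their median SD was 1.87 over the Ebf2-positive arrays and 0.40 over the Ebf2-negative arrays, beside 0.38 and 0.24 over all genes. An SD above 2 over the Ebf2-positive arrays was found for 5 of the 10 genes (Acan, Hapln1, Cnmd, Snorc and Ucma) and for 0.803% of all genes. Over the Ebf2-negative arrays it was found for 0 of the 10 and 0.0275% of all genes. Ebf2-positive replicate 2 lay at least 2 below both other Ebf2-positive arrays for 5 of the 10 (Acan, Matn3, Hapln1, Cnmd and Ucma) and for 0.852% of all genes. Replicate 1 lay that far below the others for 0 of the 10 and 1.03% of all genes, and replicate 3 for 0 and 0.594%. Both thresholds were chosen after the values were seen, and the shares are descriptions without a test.

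Ebf2-positive replicate 2 was the lowest array of its group for 9 of the 10 genes (all but Sox5), as it was for 32.2% of all genes. It was below all 3 Ebf2-negative arrays for 7 of them, Sox6, Acan, Matn3, Hapln1, Cnmd, Snorc and Ucma, and for 35.3% of all genes. The signal in Ebf2-negative cells was not uniform either. Ebf2-negative replicate 2 was the highest of its group for 5 of the 10 (Sox6, Acan, Matn1, Cnmd and Snorc) and for 35.0% of all genes. Its distance to the next Ebf2-negative array was largest for Cnmd, at 6.42 against 4.83, and Acan, at 6.68 against 5.40. The mean over the 10 genes was 6.02, 3.43 and 6.46 on the Ebf2-positive arrays, against 4.19, 4.81 and 4.42 on the Ebf2-negative arrays.

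Of the 8 cartilage collagen chains, 5 showed the same split between Ebf2-positive arrays. With all arrays 0 of the 8 were called in either direction (median difference 1.09). Without Ebf2-positive replicate 2, 5 were higher and 0 lower, beside 10.3% and 13.6% of all genes. Poly-A centring with all arrays gave 0 higher and 4 lower, beside 1.25% and 85.7% of all genes. The 5 were Col2a1, Col9a1, Col9a2, Col9a3 and Col11a1, chains of the type II, IX and XI collagens of cartilage, and the last 3 were named after their values were seen. Col2a1, the main collagen of cartilage, was at 11.37, 5.95 and 11.57 in Ebf2-positive and at 7.18, 8.66 and 7.39 in Ebf2-negative cells. It had a difference of 1.89 (limma adjusted p = 0.421), and of 3.72 without replicate 2 (adjusted p = 0.00542). Col9a1 was at 9.87, 3.90 and 10.04 in Ebf2-positive and at 5.31, 7.73 and 6.50 in Ebf2-negative cells, with the same order of arrays. Col10a1, the collagen of hypertrophic chondrocytes, was dim on every array, at 3.55, 2.80 and 3.21 in Ebf2-positive cells, against 3.17, 2.75 and 3.22 in Ebf2-negative cells, and was named after its value was seen. So were the other chains that did not split the arrays. Col27a1, a fibrillar collagen of cartilage, was at 6.55, 6.90 and 7.56 in Ebf2-positive cells, against 5.59, 6.62 and 6.33 in Ebf2-negative cells, with Ebf2-positive replicate 2 in the middle of its group. Col11a2, a chain of type XI collagen, was at 4.33, 4.0 and 5.79 in Ebf2-positive cells, against 3.57, 4.64 and 3.91 in Ebf2-negative cells, and only Ebf2-positive replicate 3 was above every Ebf2-negative array.

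Among other matrix proteins of cartilage, many of them shared with tendon, synovium and fibrous tissue, more were called. Of 20 measured, 12 were higher and 0 lower (median difference 2.73), or 5 higher and 7 lower with poly-A centring. For this and the next lists the shares of all genes were 10.8% higher and 13.6% lower, or 1.25% and 85.7% with poly-A centring. Prg4, the joint lubricant lubricin, was at 9.77, 9.76 and 10.53 in Ebf2-positive and at 3.92, 4.93 and 2.94 in Ebf2-negative cells (6.09, limma adjusted p = 7.6e-04). Cilp, a protein of the middle layer of articular cartilage, was at 11.16, 10.92 and 11.35 in Ebf2-positive and 5.16, 5.40 and 4.98 in Ebf2-negative cells (5.96). Dcn, the small proteoglycan decorin, differed by 5.43. For Prg4 and Cilp, Ebf2-positive replicate 2 was far above every Ebf2-negative array, as replicates 1 and 3 were. Epyc and Mia, named after their values were seen, split the Ebf2-positive arrays instead. Epyc, a small proteoglycan of growth plate cartilage, was at 6.05, 2.71 and 7.12 in Ebf2-positive cells, against 3.73, 4.88 and 2.75 in Ebf2-negative cells. Mia, a secreted protein of chondrocytes, was at 6.53, 3.89 and 5.91 in Ebf2-positive cells, against 4.21, 4.66 and 4.63 in Ebf2-negative cells.

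Of 18 measured regulators of cartilage growth, 6 were higher and 1 lower (median difference 0.41), and 1 was higher and 12 lower with poly-A centring. Gdf10, a ligand of the TGF-beta superfamily, differed by 5.85 (10.79, 10.67 and 10.84 in Ebf2-positive cells, against 3.84, 5.99 and 4.93 in Ebf2-negative cells). Zbtb20, a zinc finger repressor needed for hypertrophic cartilage in the mouse, differed by 3.51, and Bmpr1a, a receptor of bone morphogenetic proteins, by 2.85. The lower gene, named after its value was seen, was Runx3, a runt factor of chondrocyte maturation and of blood cells (-2.72), whose call was lost without Ebf2-positive replicate 1, 2 or 3 or without Ebf2-negative replicate 3 (adjusted p from 0.0537 to 0.0622). Without Ebf2-negative replicate 3, 3 of the 18 were higher, beside 7.11% of all genes.

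Among 16 enzymes and transporters of sulfated glycan synthesis, which build the chains that aggrecan carries, 6 were higher and 0 lower (median difference 0.29), or 3 higher without Ebf2-negative replicate 3 and 0 higher and 10 lower with poly-A centring. The named ones were Ugdh, which makes glucuronic acid units (3.16), Papss2, which makes the sulfate donor (2.23), and Chsy3, a chondroitin synthase (1.48). Of 9 genes of aggrecan turnover, 7 were higher and 0 lower (median difference 3.40), or 2 higher and 1 lower with poly-A centring. Timp3, an inhibitor of metalloproteinases, differed by 4.85, the aggrecanase Adamts5 by 4.41 and the stromelysin Mmp3 by 3.74. Mmp13, the collagenase of cartilage and bone, was named after its value was seen. It was at 3.77, 8.33 and 1.91 in Ebf2-positive and at 8.94, 9.03 and 8.0 in Ebf2-negative cells (-3.98, adjusted p = 0.114), and Ebf2-positive replicate 2 was the high array of its group here. Without that array Mmp13 was called lower (-5.81, adjusted p = 0.00338).

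Of 16 other SOX factors, 1 was higher and 0 were lower (median difference 0.06), beside 10.8% and 13.6% of all genes. With poly-A centring 0 were higher and 13 lower, beside 1.25% and 85.7% of all genes. The called gene was Sox13, the third SOXD factor beside Sox5 and Sox6, at 7.37, 7.63 and 7.84 in Ebf2-positive and at 5.76, 6.03 and 5.90 in Ebf2-negative cells (1.72, limma adjusted p = 0.00236). Ebf2-positive replicate 2 was in the middle of its group for Sox13, unlike Sox6. The filter on names ending in _x_at, _s_at or _a_at removes this Sox13 probe set, and 0 of the other SOX factors were then called. Of the 16, Sox4, Sox8, Sox11 and Sox12 were also counted among the regulators of cartilage growth.

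Markers of other cell types also differed between the Ebf2-positive arrays. Over 13 leukocyte genes the Ebf2-positive arrays had means of 5.86, 6.96 and 5.86, against 7.27, 7.32 and 7.52 for the Ebf2-negative arrays, with 1 gene (Mpo) called higher and 3 lower. For this and the next lists, the shares of all genes with all arrays were 10.8% higher and 13.6% lower. Without Ebf2-positive replicate 2, 8 of the 13 were lower, beside 13.6% of all genes. Without Ebf2-negative replicate 3, 1 was lower and 0 higher, beside 7.67% and 7.11%. The mean of 10 endothelial genes was 5.75, 7.05 and 6.08 on the Ebf2-positive and 4.72, 5.89 and 4.65 on the Ebf2-negative arrays, with 3 called higher. The mean of 9 adipocyte and marrow reticular genes was 8.72, 9.54 and 8.84 on the Ebf2-positive arrays, against 7.98, 9.34 and 8.28 on the Ebf2-negative arrays, with 2 called higher and 0 lower. Of that list Adipoq, the gene of adiponectin, named after its value was seen, was at 6.28, 9.69 and 6.35 in Ebf2-positive cells, against 7.71, 10.19 and 8.33 in Ebf2-negative cells. Within the Ebf2-positive group these 3 means were highest on replicate 2, where the mean of the 10 cartilage genes was lowest. Within the Ebf2-negative group the endothelial and adipocyte means, but not the leukocyte mean, were also highest on replicate 2. There the mean of the 10 cartilage genes was highest too (4.81, against 4.19 and 4.42). The part of these cell types in the cartilage result was not tested. The means of 12 fibroblast genes (11.04, 11.30 and 11.10 in Ebf2-positive cells, against 5.31, 5.99 and 5.53 in Ebf2-negative cells), 10 synovial and tendon genes (9.51, 9.38 and 9.71 in Ebf2-positive cells, against 5.42, 5.97 and 5.58 in Ebf2-negative cells) and 9 osteoblast genes (6.26, 6.27 and 6.32 in Ebf2-positive cells, against 5.80, 6.43 and 5.73 in Ebf2-negative cells) were close together among the Ebf2-positive arrays. Close means did not hold gene by gene, since single genes moved in opposite directions on replicate 2. Among the osteoblast genes, Phex was at 5.83, 7.99 and 5.63 on the Ebf2-positive arrays, and Dmp1 at 4.57, 2.61 and 4.79. Among the synovial and tendon genes, Thbs4 was at 11.75, 10.73 and 11.69 on these arrays, and Tppp3 at 10.70, 11.73 and 11.02. These examples were picked with the data in hand. The synovial and tendon list shares Prg4, Comp, Fmod and Cilp with the list of other cartilage matrix proteins. In sorted bulk samples, fewer cells of a type and less RNA per cell cannot be told apart.

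**Figure D4:**
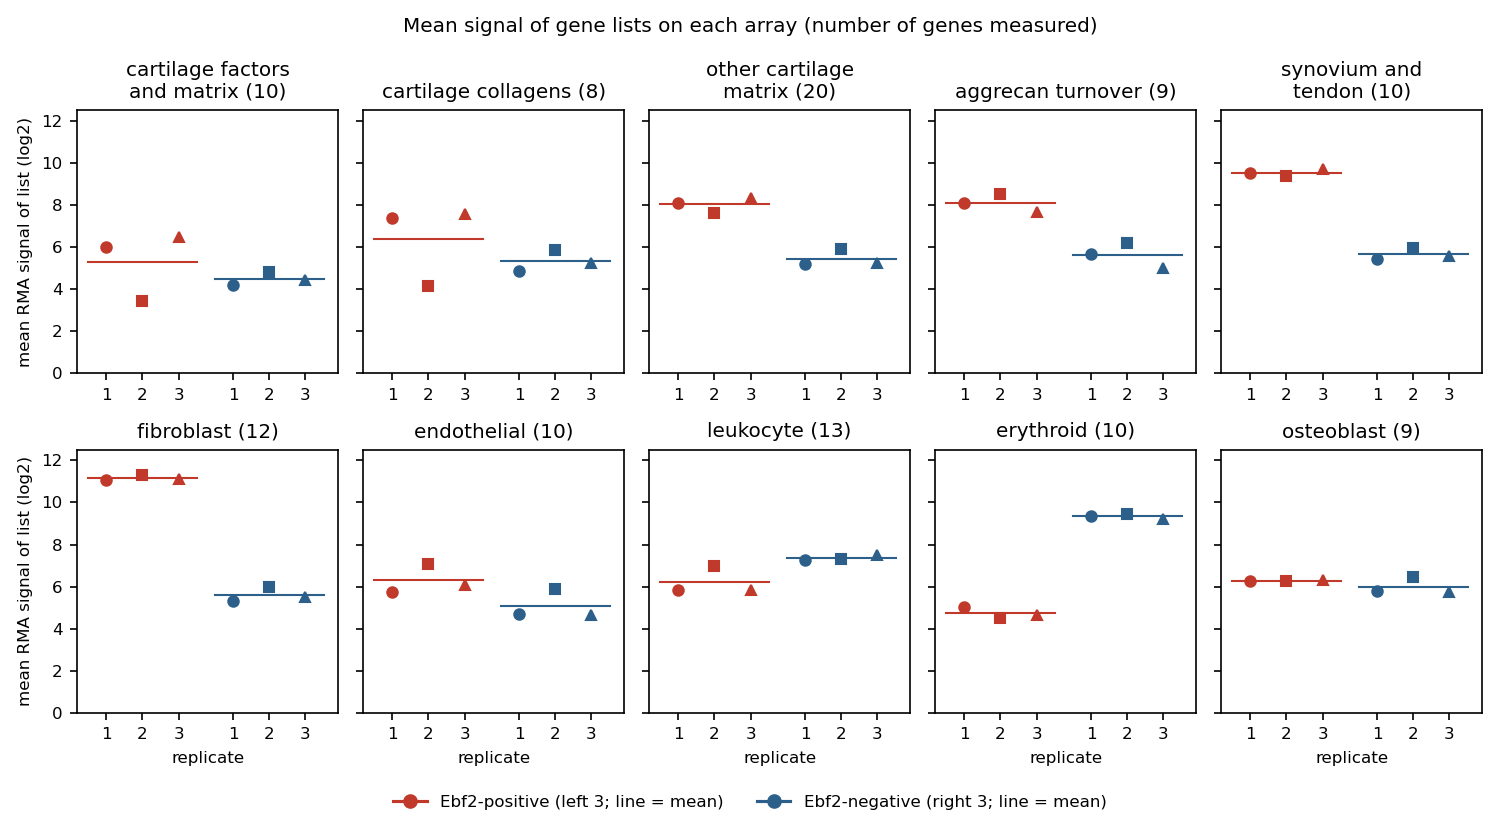
The mean log2 RMA signal of gene lists on each array, Ebf2-positive on the left and Ebf2-negative on the right of each panel, with lines at group means and the number of genes measured in each title. For the 10 cartilage genes and the cartilage collagens, Ebf2-positive replicate 2 (3.43 and 4.15) lies below all Ebf2-negative arrays while replicates 1 and 3 lie above them.

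The genes with the profile most like the mean profile of the 10 were found as those with the smallest root mean square difference over the 6 arrays, after each gene was centred on its own mean. Genes named by clone or model identifiers were left out of this ranking, as were the 10. Nearest was Col9a2, a chain of type IX collagen (0.28), at 5.27, 3.21 and 5.31 in Ebf2-positive and at 3.61, 4.20 and 3.86 in Ebf2-negative cells. It was followed by Zfp14 (0.28), a zinc finger gene, Lonrf3 (0.31), Lxn, the carboxypeptidase inhibitor latexin (0.32), Zfp3 (0.34) and Cldn1, a tight junction protein (0.35). The 10 genes themselves lay between 0.45 (Matn3) and 1.19 (Cnmd) from their own mean profile. Nearest to Sox9 were Mypop (0.09), Hmbox1 (0.09) and Grip2 (0.11), and nearest to Sox6 were Phlpp2 (0.24), Ivd (0.26) and Fancg (0.26).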

How the data were processed

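The authors calculated probe set signals with RMA, per the series design text and the submitters' processing notes, and deposited them as linear intensity values, 1 column per array. The sources used here name no version, chip definition or filter. Here log2 was taken with no further normalization or filter. Of 45101 probe sets, 64 controls were left out. By GEO's platform annotation, 34945 name 1 gene, 932 several and 9160 none, and no symbol changed when Entrez numbers were looked up in RefSeq.

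Each gene was represented by its brightest probe set over all arrays. Genes and probe sets were fitted separately with limma 3.58.1 in R 4.3.3 (lmFit, eBayes), 3 Ebf2-positive against 3 Ebf2-negative arrays, with Benjamini-Hochberg adjusted p under 0.05 over the whole table. The procedure was tested on simulated data with the same spread in both groups and no deviating array. That simulation does not cover a group with a deviating array, as seen for these genes. An exact permutation test of 3 against 3 cannot go below 0.1 and was not used. Members and lists were chosen with earlier results of these data known. From each other cartilage list, up to 3 called genes with the largest difference are named, or the 2 brightest where none was called. The main fit treated the samples as unpaired. Deviations from the group means correlated at 0.05, 0.11 and 0.03 between arrays of the same replicate number. These values cannot decide whether such arrays share a preparation. Alternatives covered scaling, filters, probe set choice, variance model, replicate block and each array left out.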

Additional observations from a re-analysis of the deposited data

How the results depend on the processing

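Of all genes, 1961 were called higher and 2469 lower. With poly-A centring these counts were 227 and 15596, and with poly-A centring and Ebf2-positive replicate 2 left out, a setting chosen after seeing the data, 163 and 14798. Leaving out 1 array gave 1294 to 1877 higher and 1396 to 2471 lower. The 10 cartilage genes had 0 to 6 higher calls when 1 array was left out, and their 26 probe sets 0 to 10, the highest counts without Ebf2-positive replicate 2. Poly-A centring called 6 of the 10 genes lower, beside 85.7% of all genes. With Ebf2-positive replicate 2 also left out it called 3, beside 81.3%. Of the 26 probe sets, 18 and 13 were lower under these settings, for which the share of all probe sets is not given here. Without dim probe sets, or without names ending in _x_at, _s_at or _a_at, 0 probe sets were lower, since the called Sox6 probe set is removed. Of the 83 other cartilage genes, 32 were higher and 1 lower, beside 10.8% and 13.6% of all genes. Poly-A centring gave 8 and 43, beside 1.25% and 85.7%. Poly-A centring without Ebf2-positive replicate 2 gave 6 and 36, beside 0.896% and 81.3%. Leaving out 1 array gave 24 to 38 higher, beside 7.11% to 10.3% of all genes. It gave 0 to 2 lower, beside 7.67% to 13.6%. With all arrays, 12 of 12 fibroblast, 9 of 11 pericyte and smooth muscle and 7 of 10 synovial and tendon genes were also higher. Of 9 osteoblast genes 3 were higher, and of 10 erythroid genes 0, beside 10.8% of all genes. A large share of higher calls was thus not particular to cartilage genes. The fibroblast list shares Dcn with the 83 genes.

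Poly-A centring shifted all genes by -2.48 and turned the sign of Sox9 (-1.70), Acan (-1.42), Matn1 (-2.34), Matn3 (-1.14), Hapln1 (-0.20), Cnmd (-1.60), Snorc (-1.52) and Ucma (-0.22). With Ebf2-positive replicate 2 also left out, Sox9 (-1.40), Matn1 (-2.35), Matn3 (-0.35) and Snorc (-0.59) were turned. Poly-A controls averaged 12.16, 12.23 and 12.58 on the Ebf2-positive and 10.31, 8.70 and 10.52 on the Ebf2-negative arrays, and the cause was not tested. Averaging probe sets turned Sox5 (0.27). With 1 array left out, Sox5 ran from -0.56 to 0.050, Cnmd from -0.25 to 2.95 and Snorc from -0.28 to 1.93. Of the called genes, 44.3% were higher, against 1.43% with poly-A centring. The 75th percentile centring shifted all genes by 0.12. The replicate block changed no call among the 10 genes, with 0 higher and 0 lower. Averaging has no value for single probe sets.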
